A study of Ovis aries with 16 samples.

Results

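The genes described here are those of fatty acid and cholesterol synthesis that the sterol regulatory element-binding proteins (SREBPs) govern. They were taken by symbol from a list of 43 names, of which 42 had a row among the 28524 genes of the table, and the row listed under a locus identifier was read as IDI1. CYP51A1 was not analysed here. The fatty acid and triglyceride arm held 22 genes and the sterol arm 20. Expression was measured by RNA sequencing in the left lobe of the liver and in a thigh muscle, the vastus lateralis, of 8 female Suffolk sheep. The BPA sheep were 4 animals exposed before birth to bisphenol A, a monomer of polycarbonate plastics with oestrogen-like activity, given to their mothers by daily subcutaneous injection at 0.5 mg/kg/day in corn oil between gestation days 30 and 90. The control sheep were 4 animals whose mothers received corn oil alone over the same days. All 8 sheep were about 21 months old, in the follicular phase after oestrous synchronization with prostaglandin F2α, and fasted for 48 h. No other treatment or allele is given in the labels. Each sheep gave both tissues, so there were 16 libraries in 4 groups of 4, and values below follow the order of sheep 910, 918, 977 and 984 for BPA and 902, 908, 924 and 928 for control.

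SREBPs are transcription factors held in the endoplasmic reticulum membrane. When membrane sterols run low the escort protein SCAP takes them to the Golgi, where proteases free the active domain, and INSIG proteins hold them back when sterols are plentiful. SREBF1 encodes the form best known for genes of fatty acid synthesis and SREBF2 the form best known for genes of sterol synthesis, while MLXIPL encodes ChREBP, a carbohydrate-responsive factor that acts on many of the same fatty acid genes. In ruminants adipose tissue is the main site of fatty acid synthesis and acetate the main carbon source, whereas the liver is a main site of cholesterol synthesis. Fasting is known to lower fatty acid synthesis.

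Values are normalized read counts, that is reads per gene divided by 1 size factor per library, and they compare libraries for a gene but not genes with each other. Whole reads recovered from the values summed to 4664209 to 17923942 reads in BPA livers, 4391896 to 19283871 reads in control livers, 15147803 to 26535259 reads in BPA muscles and 16164636 to 28540671 reads in control muscles. Among the livers, the controls held 17932482 to 19283871 reads except 902 with 4391896 reads, and the BPA livers held 4664209 to 10637935 reads except 910 with 17923942 reads. Each tissue carried its defining markers: the 14 hepatocyte markers measured were all higher in liver and the 9 fibre markers all lower. Control liver 902 stood apart, with hepatocyte markers at a median of -2.94 and fibroblast markers at 4.6 on the log2 scale from the mean of the 8 livers. A gene was tested when its mean was at least 10, on log2(value + 1) with limma, and was called at a Benjamini-Hochberg adjusted p of at most 0.05 over all genes tested. This passed 20 genes of each arm in every comparison. THRSP, a small regulator of lipogenesis, with 0 to 9.976 normalized reads, and PNPLA3, a lipid droplet hydrolase, with 0 to 10.08, were too low to test.

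Most members differed between the tissues. Of the 40 tested genes, 29 were higher in liver than in muscle and 7 lower, against 36.1% and 35.3% of the 15995 genes tested. In the sterol arm 16 were higher, 1 was lower and 3 were not called. In the fatty acid arm 13 were higher, 6 lower and 1 was not called. The median difference was 2.06 (log2) over the sterol arm and 1.28 over the fatty acid arm, against 0.06 over all genes tested. All 8 livers lay above all 8 muscles for 19 of the 42 genes and below them for 5, and the tissues overlapped for 18. The share of all genes without overlap between the tissues was not computed, so these counts do not set the members apart from other genes. All 36 calls remained when sheep 902 and 910 were left out. These are whole tissues, so fewer cells of a type and less RNA per cell cannot be told apart.

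**Figure D1:**
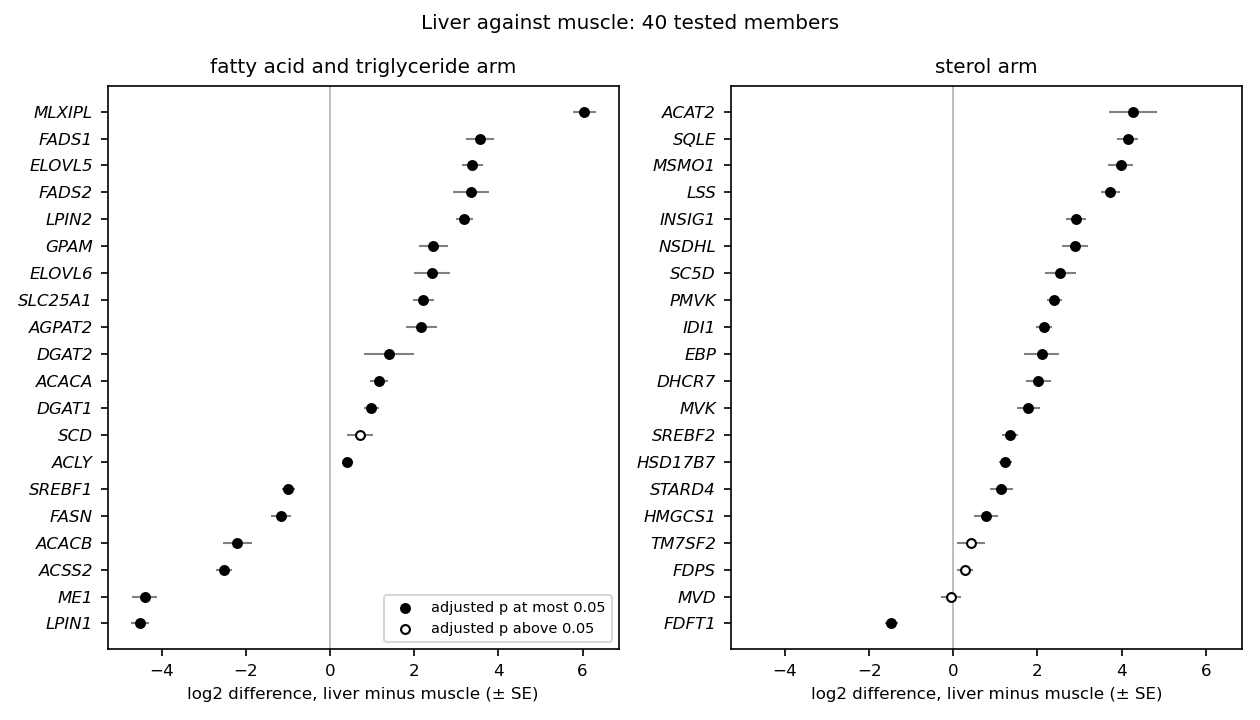
Log2 difference between liver and muscle (x axis, 16 libraries, with standard error) for the 20 tested genes of the fatty acid arm (left) and of the sterol arm (right). Filled points passed the threshold and open points did not. The fatty acid arm spreads from -4.52 (LPIN1) to 6.04 (MLXIPL), with 6 genes called lower in liver, whereas 1 called gene of the sterol arm lies left of 0.

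The regulators took different sides. SREBF1 had 867.4, 710, 838.3 and 732.4 normalized reads in BPA livers and 727.4, 1534, 1335 and 1286 in control livers, against 1698, 2527, 2312 and 2233 in BPA muscles and 2016, 1860, 1379 and 1531 in control muscles. It was lower in liver (log2 difference -0.99, SE 0.161, adjusted p = 4.12e-05), and although the ranges overlapped, the liver value was below the muscle value in all 8 sheep. SREBF2 stood at 2513, 1251, 2837 and 3495 in BPA livers and 2463, 3265, 3555 and 3984 in control livers, against 910.3, 1378, 1098 and 1279 in BPA muscles and 1144, 1046, 1080 and 874.1 in control muscles. It was higher in liver (log2 difference 1.35, SE 0.192, adjusted p = 1.03e-05), with BPA liver 918 alone inside the muscle range. The ratio of SREBF1 to SREBF2 was 0.21 to 0.567 in BPA livers and 0.295 to 0.47 in control livers, against 1.75 to 2.11 in BPA muscles and 1.28 to 1.78 in control muscles, so the tissues did not overlap in this ratio. INSIG1, itself a target and a brake of SREBP processing, had 1204, 399.8, 698.6 and 902.1 in BPA livers and 486.2, 1210, 905 and 1391 in control livers, against 107.4 to 114.8 in BPA muscles and 84.22 to 136.5 in control muscles (log2 difference 2.91, SE 0.236, adjusted p = 1.27e-08). MLXIPL reached 2586, 3360, 6899 and 10290 in BPA livers and 4261, 2253, 3123 and 2546 in control livers, against 69.08, 66, 36.49 and 72.15 in BPA muscles and 80.36, 54.78, 48.11 and 46.61 in control muscles. Its difference was the widest of the 40 genes (log2 difference 6.04, SE 0.267, adjusted p = 6.61e-12). The muscle mean of MLXIPL was 1.34% of its liver mean, and the muscle means of the 14 hepatocyte markers were 0.781 to 2.11% of theirs, and the part of hepatocyte transcripts in the muscle values was not tested.

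The genes that supply acetyl units and reducing power for fatty acid synthesis, and the synthase itself, lay on both sides. ACSS2, which turns acetate into acetyl-CoA, had 198.4 to 368.5 normalized reads in BPA livers and 186.6 to 436.2 in control livers, against 1504 to 1871 in BPA muscles and 1605 to 1836 in control muscles (log2 difference -2.52, SE 0.184, adjusted p = 3.75e-09). ME1, the cytosolic malic enzyme that yields NADPH, had 24.46, 12.49, 21.21 and 8.4 in BPA livers and 94.22, 17.89, 19.19 and 19.46 in control livers, against 495.8, 488.1, 494.1 and 446.7 in BPA muscles and 399.4, 452.6, 525.7 and 430.1 in control muscles. All livers lay below all muscles for ME1, by 21.3-fold (log2 difference -4.41, SE 0.308, adjusted p = 2.05e-09). FASN, the synthase that builds palmitate, had 351.5, 181.1, 459.1 and 618.2 in BPA livers and 1289, 427.3, 553.8 and 562.4 in control livers, against 1217, 1206, 1224 and 1306 in BPA muscles and 1006, 995.3, 950.5 and 932.1 in control muscles. It was lower in liver (log2 difference -1.17, SE 0.24, adjusted p = 0.000386) in 7 of 8 sheep, the exception being control sheep 902. SLC25A1, the mitochondrial citrate carrier, went the other way (log2 difference 2.21, SE 0.252, adjusted p = 8.09e-07), and ACLY, which cleaves citrate to acetyl-CoA, was higher in liver by 0.41 (log2, adjusted p = 0.0121).

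The acetyl-CoA carboxylases divided between the tissues. ACACA, the cytosolic enzyme that feeds synthesis, had 463.1, 1428, 1302 and 1603 normalized reads in BPA livers and 1108, 678.4, 695.2 and 726.8 in control livers, against 464.6, 439, 373.4 and 427.2 in BPA muscles and 446.8, 367.4, 397.8 and 388.4 in control muscles (log2 difference 1.16, SE 0.217, adjusted p = 0.000163). ACACB, the mitochondrial form whose malonyl-CoA restrains fatty acid entry into mitochondria, had 555.6, 1628, 3106 and 3825 in BPA livers and 1575, 485.8, 1098 and 666.4 in control livers, against 4712, 5297, 7462 and 6042 in BPA muscles and 4752, 7147, 5380 and 6251 in control muscles (log2 difference -2.21, SE 0.343, adjusted p = 2.51e-05). ACACA was thus higher in liver and ACACB lower, with no overlap between tissues for ACACB. The ratio of ACACB to ACACA was 1.14 to 2.39 in BPA livers and 0.716 to 1.58 in control livers, against 10.1 to 20 in BPA muscles and 10.6 to 19.4 in control muscles. The lipins, phosphatidate phosphatases of glycerolipid synthesis, divided in the same manner. LPIN1 had 95.53, 168.6, 309.4 and 288.9 in BPA livers and 139.4, 89.45, 140 and 161.1 in control livers, against 3024, 3168, 4042 and 3324 in BPA muscles and 4188, 4478, 3790 and 3496 in control muscles (log2 difference -4.52, SE 0.215, adjusted p = 1.63e-11). LPIN2 had 2156, 939, 1533 and 2034 in BPA livers and 908.3, 2358, 1593 and 1899 in control livers, against 193.9, 178, 168.4 and 169.4 in BPA muscles and 155.8, 158.4, 187.8 and 174.2 in control muscles (log2 difference 3.19, SE 0.199, adjusted p = 4.91e-10). Neither lipin overlapped between tissues, and LPIN1 over LPIN2 was 0.0443 to 0.202 in BPA livers and 0.0379 to 0.154 in control livers, against 15.6 to 24 in BPA muscles and 20.1 to 28.3 in control muscles.

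The members that elongate, desaturate and esterify fatty acids were mostly higher in liver. FADS1, a front-end desaturase of polyunsaturated fatty acids, had 1900, 1128, 1732 and 1826 normalized reads in BPA livers and 457.9, 1837, 2834 and 4392 in control livers, against 154.9, 135.8, 181.1 and 148.4 in BPA muscles and 171.7, 135.7, 132.6 and 103.8 in control muscles (log2 difference 3.56, SE 0.337, adjusted p = 8.78e-08). ELOVL5, which lengthens polyunsaturated fatty acids, had 1370, 807.8, 1023 and 647.6 in BPA livers and 589.8, 1675, 2234 and 2653 in control livers, against 128.1, 99, 129.1 and 117.6 in BPA muscles and 125.4, 96.07, 111.5 and 113.7 in control muscles (log2 difference 3.38, SE 0.256, adjusted p = 5.77e-09). Both genes had every liver above every muscle, as did FADS2, the other front-end desaturase (log2 difference 3.34, SE 0.431, adjusted p = 3.41e-06). ELOVL6, which lengthens palmitate, was also higher in liver (log2 difference 2.42, SE 0.425, adjusted p = 9.06e-05). SCD, which puts the first double bond into saturated fatty acids, was the gene of this arm that was not called (log2 difference 0.71, SE 0.307, adjusted p = 0.05002), with the liver value above the muscle value in 5 of 8 sheep. It was called with sheep as a block, with a minimum mean of 50, and with TMM scaling, edgeR, DESeq2 or sample quality weights. Leaving out sheep 902, 908 or 918 also led to a call of SCD, and the other settings run did not. Among the esterifying enzymes GPAM and AGPAT2, which load the first and the second acyl chain onto glycerol phosphate, differed by 2.45 and 2.17 (log2), and DGAT1, which completes triglyceride, by 0.98; all 3 were higher in liver. DGAT2, the second enzyme of that step, was close to the threshold (log2 difference 1.39, SE 0.595, adjusted p = 0.0466), and it was not called with sheep as a block, with no filter on low values, with TMM or upper quartile scaling, or when sheep 908, 910, 924, 928, 977 or 984 was left out.

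The muscle samples also carried adipocyte transcripts. Of the 9 adipocyte markers, 8 were lower in liver and 1, CIDEA, higher, and ADIPOQ, the fat cell hormone adiponectin, had 0 to 9.422 normalized reads in livers against 144.6 to 1304 in muscles. The summed adipocyte markers were 3857 to 7637 in BPA livers and 1500 to 10230 in control livers, against 11210 to 14110 in BPA muscles and 10620 to 14000 in control muscles, and GPD1, an enzyme that liver and muscle also express, made up most of the sum in every library, with 1185 to 9927 in livers and 6098 to 11980 in muscles. The part of fat cell transcripts in the muscle levels of FASN, ACSS2, ME1, SREBF1, ACACB and LPIN1 was not tested.

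The sterol arm was nearly uniform in direction. ACAT2, the cytosolic thiolase that makes acetoacetyl-CoA and not the cholesterol-esterifying enzyme SOAT2, had 5610, 841.1, 692.4 and 561.1 normalized reads in BPA livers and 282.7, 4876, 5293 and 5906 in control livers, against 79.81 to 96.85 in BPA muscles and 71.63 to 93.88 in control muscles (log2 difference 4.27, SE 0.578, adjusted p = 5.92e-06). Its muscle mean was 2.96% of its liver mean, just above the 0.781 to 2.11% of the hepatocyte markers. HMGCS1, the synthase of the next step, had 1127, 1006, 394.2 and 293.1 in BPA livers and 572.8, 1620, 1663 and 1784 in control livers, against 401.1, 660.7, 487.1 and 505.9 in BPA muscles and 501.6, 559.6, 469.4 and 562.5 in control muscles. It was higher in liver by a narrow margin (log2 difference 0.78, SE 0.293, adjusted p = 0.0263) and lost the call when sheep 908, 910, 918, 924 or 928 was left out. Among the mevalonate enzymes MVK, PMVK and IDI1 were higher in liver by 1.78, 2.4 and 2.16 (log2), whereas MVD (log2 difference -0.06, SE 0.241, adjusted p = 0.823) and FDPS, the farnesyl diphosphate synthase (log2 difference 0.28, SE 0.197, adjusted p = 0.22), were not called. FDFT1, the squalene synthase that opens the sterol branch, was the sterol gene lower in liver (log2 difference -1.47, SE 0.149, adjusted p = 2.05e-07), with 799.5 to 1414 in BPA livers and 876.2 to 1503 in control livers against 3013 to 3405 in BPA muscles and 2852 to 3425 in control muscles.

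Of the members that act after squalene, TM7SF2 was not called and the others described here were higher in liver. SQLE, squalene epoxidase, had 93.24, 241.5, 121 and 164.6 normalized reads in BPA livers and 218.6, 211.9, 312.1 and 450.3 in control livers, against 14.48, 6.139, 11.23 and 12.97 in BPA muscles and 14.61, 7.585, 11.73 and 8.994 in control muscles (log2 difference 4.14, SE 0.252, adjusted p = 3.5e-10). LSS, which closes the sterol rings to lanosterol, had 1019, 774.5, 1156 and 1294 in BPA livers and 457.9, 1063, 1381 and 1754 in control livers, against 62.4, 85.18, 92.64 and 97.28 in BPA muscles and 88.88, 76.69, 57.5 and 69.5 in control muscles (log2 difference 3.73, SE 0.232, adjusted p = 4.86e-10). The steps on both sides of squalene thus ran opposite ways, FDFT1 lower in liver and SQLE and LSS higher, with no overlap between tissues for any of them. MSMO1, an oxidase that removes methyl groups from the sterol ring, had 555.6, 1010, 272 and 347.7 in BPA livers and 358, 601.4, 1591 and 1066 in control livers, against 26.67 to 38.37 in BPA muscles and 38.77 to 55.6 in control muscles, and was higher in liver (log2 difference 3.98, SE 0.299, adjusted p = 4.98e-09). NSDHL, SC5D, EBP, DHCR7 and HSD17B7, later enzymes of the path from lanosterol to cholesterol, were higher by 2.88, 2.54, 2.1, 2.02 and 1.24, and STARD4, a sterol carrier, by 1.14 (log2). TM7SF2, a sterol reductase, was not called (log2 difference 0.43, SE 0.331, adjusted p = 0.258).

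For BPA against control in liver, no member was called, and neither was any of the 15689 genes tested (0%). Unadjusted p lay under 0.05 for 3 of the 40 members and for 2838 of all genes, and edgeR's quasi-likelihood test on the recovered reads also called 0 genes, while DESeq2 called 195 (1.24%) with no member among them. For SCD (log2 difference -2.1) and ELOVL6 (log2 difference -2.31) DESeq2 gave no adjusted p, so it could not call them. The estimates leaned below 0 more in the sterol arm, with 17 of 20 genes negative and a median of -0.67 (log2), than in the fatty acid arm, with 14 of 20 negative and a median of -0.24. Over all genes tested 50.7% were negative and the median was -0.01. No difference between the arms was tested, since the members of an arm share their libraries.

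**Figure D2:**
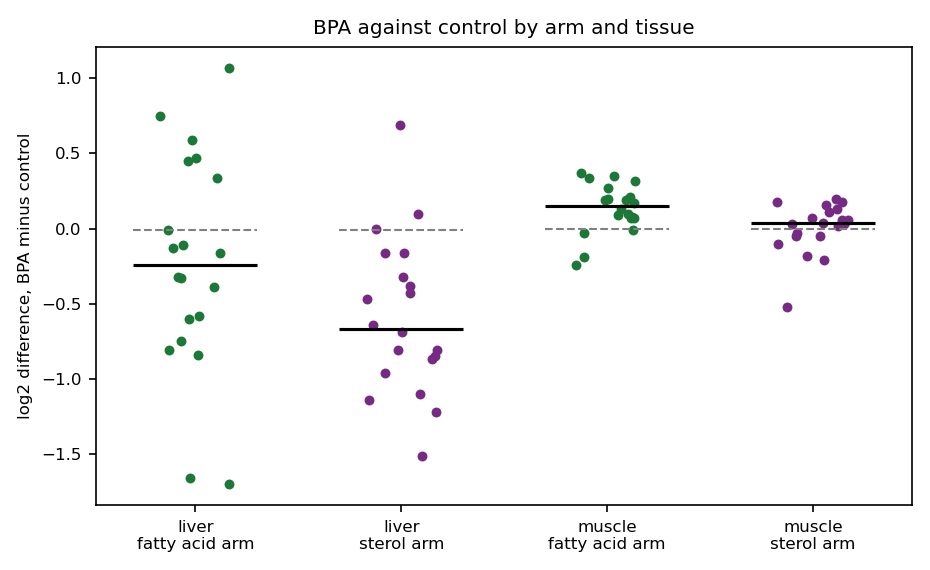
Log2 difference of BPA minus control (y axis) for each tested gene, by tissue and arm, with 20 genes in each column. Solid lines mark the median of the column and dashed lines the median over all genes tested; the liver sterol column has its median at -0.67 and the liver fatty acid column at -0.24, and the muscle columns lie at 0.15 for the fatty acid arm and 0.03 for the sterol arm.

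The sterol levels varied among the livers of each group. The median deviation of the sterol arm from the mean of the 8 livers was 0.26, -0.47, -0.52 and -0.29 (log2) in BPA livers and -0.77, 0.38, 0.68 and 0.9 in control livers. BPA liver 910 lay above the other BPA livers and below controls 908, 924 and 928, and control liver 902 lay below every BPA liver. The fatty acid arm deviated by 0.05, -0.51, -0.1 and -0.09 in BPA livers and by -0.4, 0.12, 0.21 and 0.37 in control livers. The hepatocyte markers lay above and below 0 in the same livers as the sterol arm, at 1.41, -0.72, -0.86 and -1.02 in BPA livers and -2.94, 1.26, 1.36 and 1.47 in control livers. Depth differed between these livers, with 4391896 to 10637935 reads in sheep 902, 918, 977 and 984 and 17923942 to 19283871 reads in the other 4. Summed hepatocyte markers ran from 283600 to 1695000 in BPA livers and from 74120 to 1658000 in control livers, summed fibroblast markers from 2651 to 5713 in BPA livers and from 6025 to 121000 in control livers, and summed macrophage markers from 1016 to 5573 in BPA livers and from 5973 to 8971 in control livers. None of the genes in these 3 lists was called or at 0 in a whole group, unadjusted p lay under 0.05 for 0 of 14 hepatocyte, 6 of 10 fibroblast and 6 of 8 macrophage markers, and their part in the sterol values was not tested. Without control liver 902 the median of the sterol arm was -1.08 and that of the fatty acid arm -0.44, still with 0 members and 0 genes called. Without BPA liver 910 these medians were -0.76 and -0.43, with 0 members but 16.5% of all genes tested called.

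**Figure D3:**
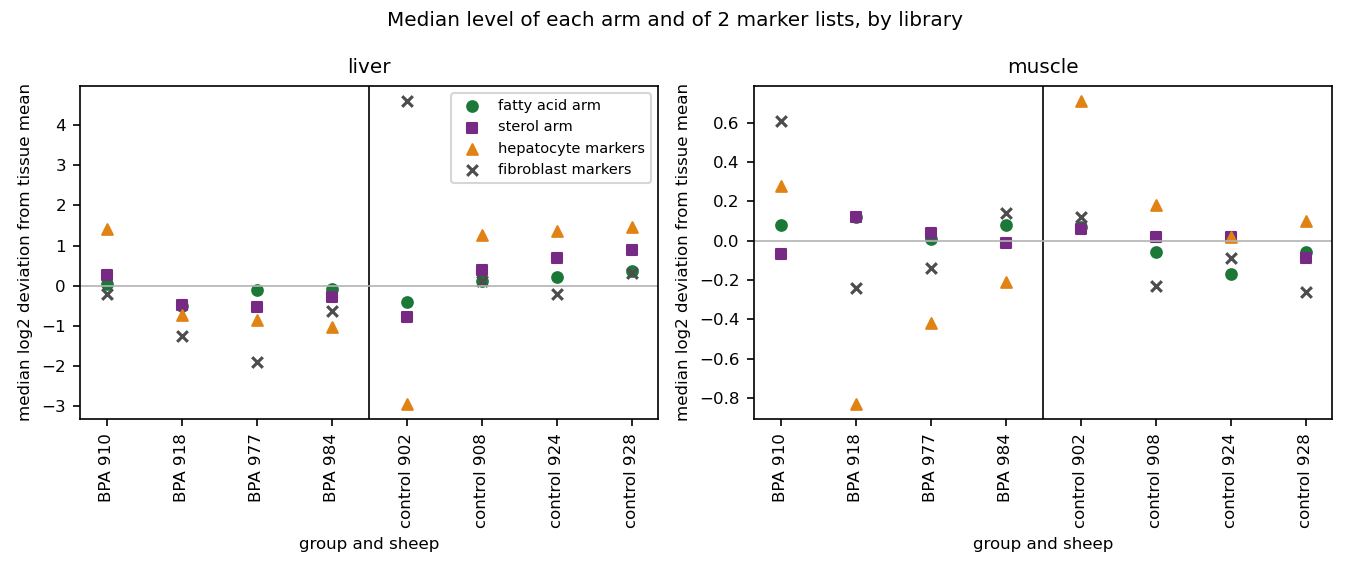
Median log2 deviation from the mean of the tissue's 8 libraries (y axis) for the fatty acid arm, the sterol arm, hepatocyte markers and fibroblast markers, by library (x axis, BPA left of the line and control right of it); the y scales of the tissues differ. In liver, both arms lie below 0 in sheep 902, 918, 977 and 984 and above 0 in sheep 910, 908, 924 and 928, as the hepatocyte markers do.

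SCD was the 1 member, of 40, whose liver groups did not overlap, with BPA below control; 3.98% of all genes tested had every BPA liver below every control and 3.63% every BPA liver above. It had 178.1, 139.5, 147.2 and 177.2 normalized reads in BPA livers, against 1707, 325.5, 340.5 and 387.2 in control livers. The BPA values were close together and the control values were too except for 902, which was several times higher than the other 3. The difference did not pass the threshold (log2 difference -1.7, SE 0.505, adjusted p = 0.256, 95% interval -2.83 to -0.57), and without 902 it was -1.13 with an adjusted p of 0.131. In a limma fit of all 16 libraries at once the same difference had an adjusted p of 0.0279, and the share of all genes called there is not reported here. That fit shares its estimate of spread between the tissues. The median SD of the fatty acid arm was 0.6 in BPA livers and 0.83 in control livers, against 0.18 in BPA muscles and 0.16 in control muscles, so the fit can understate the error in liver. ELOVL6 had 187.2, 114.5, 53.64 and 124.3 in BPA livers, against 1760, 213.3, 147.9 and 261.7 in control livers (log2 difference -1.66, SE 0.725, adjusted p = 0.273). Here BPA liver 910 lay inside the control range, and without 902 the difference was -0.88. SREBF1, given by library above, had all 4 BPA livers and control liver 902 between 710 and 867.4 and the other 3 controls between 1286 and 1534 (log2 difference -0.58, SE 0.302, adjusted p = 0.315).

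The sterol genes with the smallest p in liver also overlapped between groups. SQLE had 93.24 to 241.5 normalized reads in BPA livers against 211.9 to 450.3 in control livers (log2 difference -0.96, SE 0.377, adjusted p = 0.258). IDI1, the isomerase of the isoprenoid unit, had 939.2, 653.8, 517.7 and 413.3 in BPA livers, against 586, 1256, 1406 and 1326 in control livers (log2 difference -0.85, SE 0.381, adjusted p = 0.277). PMVK, phosphomevalonate kinase, ran the other way, with 591.5, 387.3, 507.7 and 567 in BPA livers against 192.2, 406, 345.5 and 360.4 in control livers (log2 difference 0.69, SE 0.309, adjusted p = 0.276). In each of the 3 genes 1 BPA liver or 1 control liver reached into the other group. HMGCS1 differed by -1.1 (adjusted p = 0.299), EBP by -1.51 (adjusted p = 0.304) and LSS by 0 (adjusted p = 1). Of the fatty acid genes, ACACB had the largest positive estimate (log2 difference 1.07, SE 0.619, adjusted p = 0.357), followed by MLXIPL at 0.75, LPIN1 at 0.59 and ACACA at 0.47; the adjusted p of these 4 was 0.357 to 0.537.

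**Figure D4:**
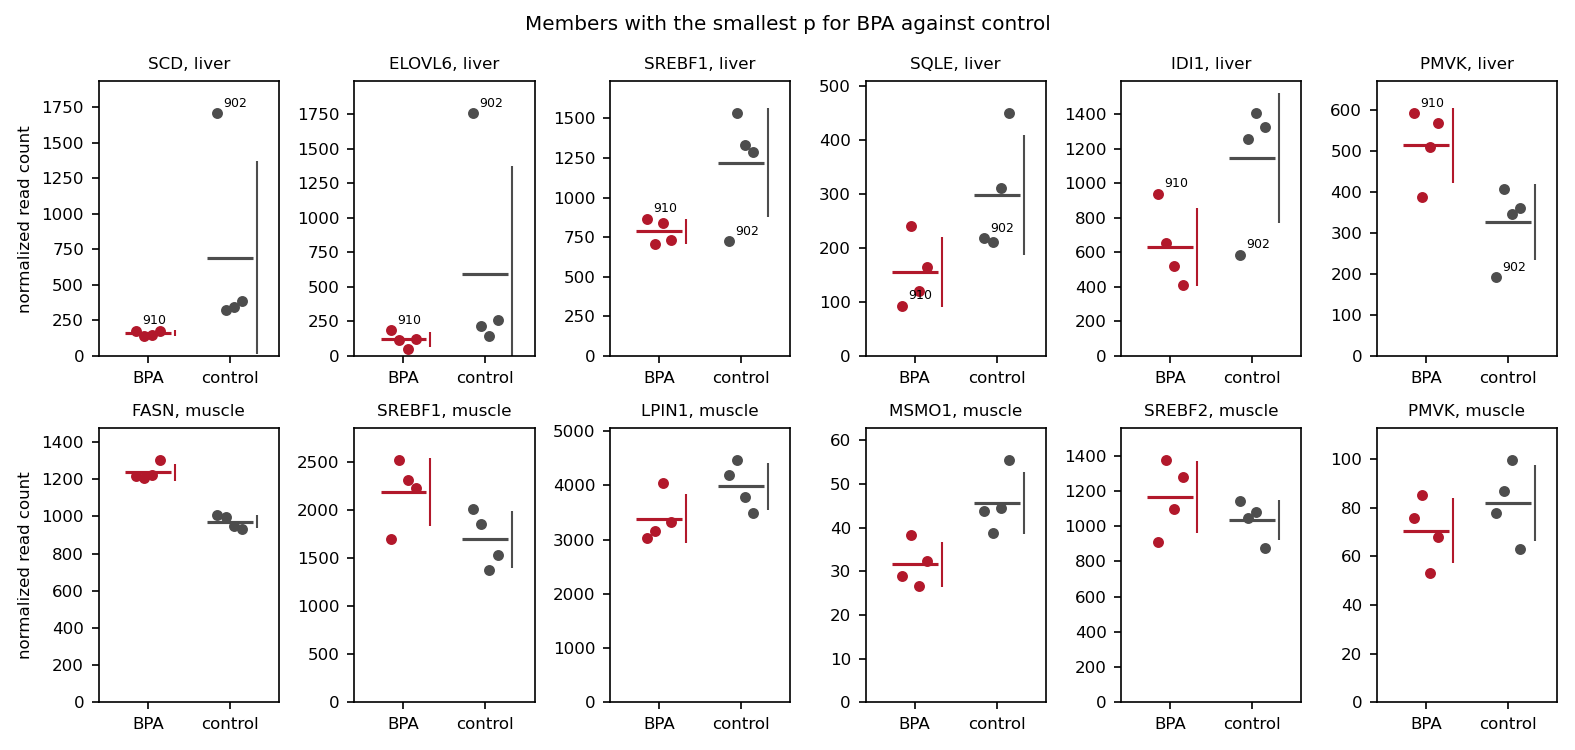
Normalized read counts (y axis, from 0) in the 4 BPA and 4 control libraries for the members with the smallest p in each arm, liver above and muscle below. Points are libraries, horizontal lines means and vertical lines 1 SD, drawn from 0 up where the mean less the SD is negative; livers 902 and 910 are marked. The liver mean of SCD in controls is set by 902 at 1707, and the muscle groups of FASN do not overlap.

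Control liver 902 differed between the arms. Of the 20 tested sterol genes 17 lay below the range of the other 3 control livers, 2 within it and 1, HSD17B7, above. Of the 20 fatty acid genes 11 lay below, 1 within and 8 above, namely SCD, ELOVL6, FASN, ACACA, ACACB, ACLY, ME1 and MLXIPL. FASN reached 1289 normalized reads in 902 against 427.3 to 562.4 in the other controls, and ME1 94.22 against 17.89 to 19.46. The 11 below the range were SREBF1, ACSS2, SLC25A1, ELOVL5, FADS1, FADS2, GPAM, AGPAT2, LPIN2, DGAT1 and DGAT2. DGAT2 had 54.65 in 902 against 1178 to 1629. Adipocyte markers were at a median of -0.23 (log2) from the liver mean in 902, while fibroblast markers stood at 4.6. The adipocyte markers were mixed: ADIPOQ at 9.422 and FABP4 at 39.57 were the highest of the 8 livers, and GPD1 at 1185 and LIPE at 20.73 the lowest. Their part in the values of 902 was not tested.

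BPA liver 910 stood apart from its group in the opposite way. Of the 20 sterol genes 13 lay above the range of the other 3 BPA livers, 2 below and 5 within, and of the 20 fatty acid genes 12 lay above, 4 below and 4 within. ACAT2 had 5610 normalized reads in 910 against 561.1 to 841.1 in the other BPA livers, and EBP, a sterol isomerase, 601.4 against 97.86 to 184.6. The 4 fatty acid genes below were ACACA, ACACB, MLXIPL and LPIN1, and ACACA had 463.1 against 1302 to 1603. When set beside the control livers 908, 924 and 928 instead, 910 had 12 sterol genes below their range, 6 within and 2 above, and 8 fatty acid genes below, 11 within and 1 above. With sheep 902 and 910 both left out, 22 of 40 members were called in liver, 12 of the fatty acid arm (4 higher and 8 lower with BPA) and 10 of the sterol arm (all lower), but so were 43.1% of all genes tested. The remaining BPA livers held 4664209 to 10637935 reads and the remaining controls 17932482 to 19283871 reads, so depth and treatment cannot be told apart in that set. These sheep were also chosen with earlier results of the same libraries known.

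**Figure D5:**
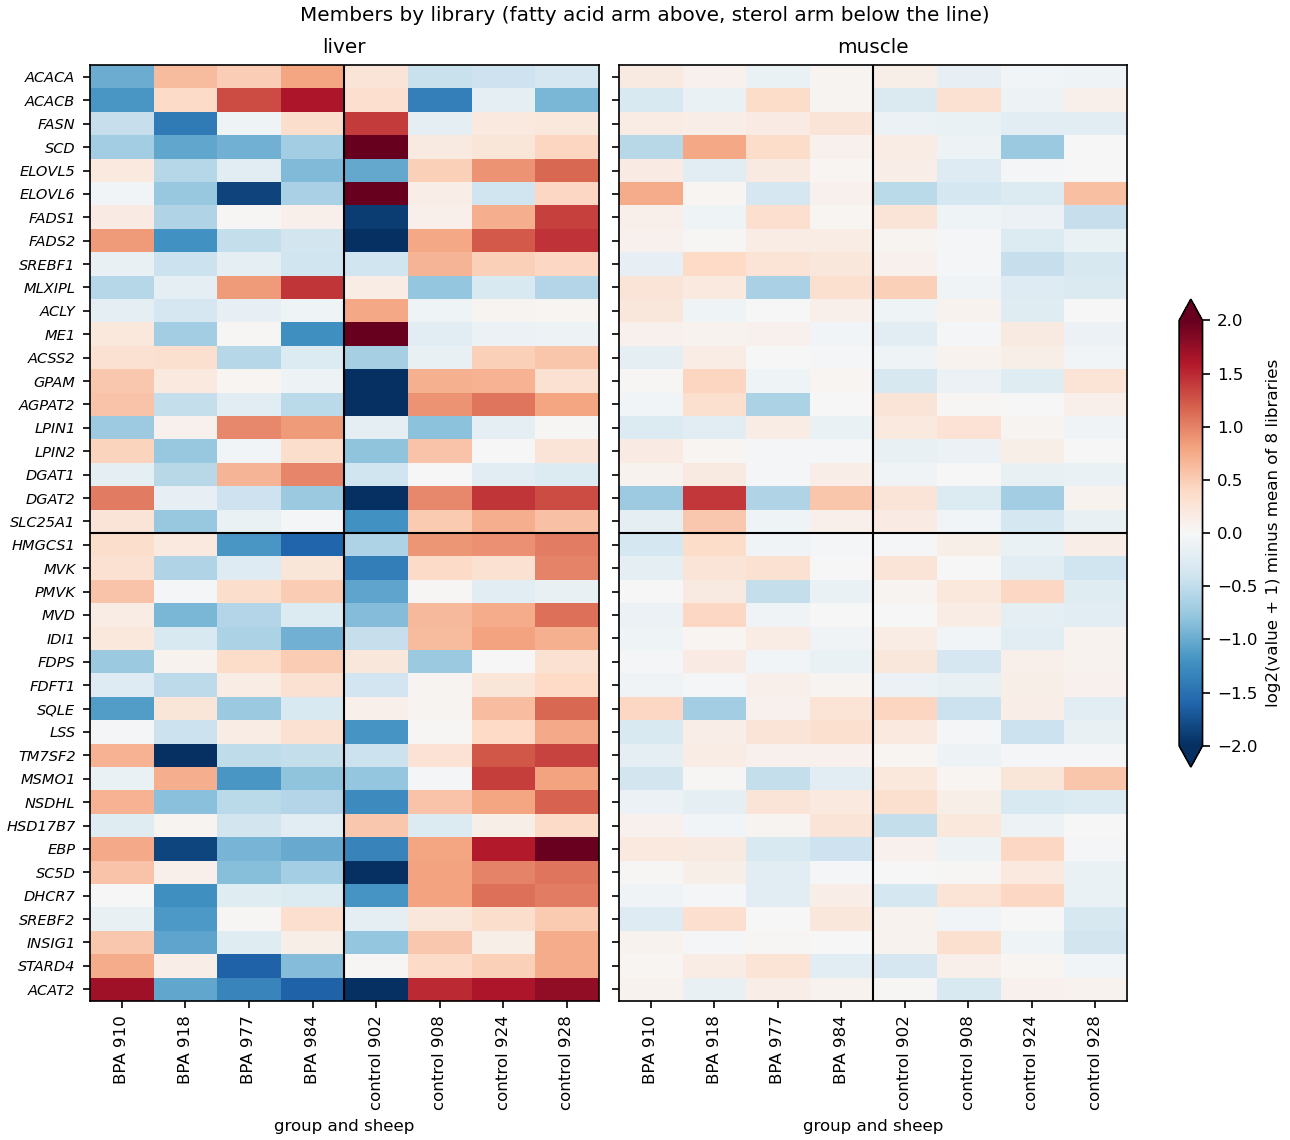
Deviation of log2(value + 1) from the mean of the tissue's 8 libraries (colour, cut at -2 and 2) for the 40 tested genes (rows) in each library (columns), liver left and muscle right, BPA left of the vertical line. Liver columns vary far more than muscle columns; in control liver 902 the dark blue rows include ACAT2, SC5D, DGAT2 and GPAM and the dark red rows SCD, ELOVL6 and ME1.

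In muscle the members varied little. The median SD of the log2 values was 0.18 in BPA muscles and 0.16 in control muscles for the fatty acid arm and 0.22 in both groups for the sterol arm. In liver it was 0.6 in BPA livers and 0.83 in control livers for the fatty acid arm, and 0.61 in BPA livers and 0.81 in control livers for the sterol arm. For BPA against control no member was called, and 0.129% of the 14706 genes tested were. Unadjusted p lay under 0.05 for 3 of 40 members and 1142 of all genes. The fatty acid arm had 16 of 20 estimates above 0 and a median of 0.15 (log2), and the sterol arm 13 of 20 and a median of 0.03, against 49.5% above 0 and a median of 0 over all genes tested.

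Among the 40 members, FASN was the gene nearest to the threshold in muscle. All 4 BPA muscles, at 1206 to 1306 normalized reads, lay above all 4 control muscles, at 932.1 to 1006, and the spread within each group was narrow. The difference amounted to 1.28-fold (log2 difference 0.35, SE 0.0727, adjusted p = 0.122, 95% interval 0.19 to 0.51) and was not called, although DESeq2 on the recovered reads gave an adjusted p of 0.000941, where it called 0.891% of all genes. FASN was the 1 member of 40 with BPA above control in every muscle library, against 2.05% of all genes tested. Of the 9 adipocyte markers 5 had estimates above 0 and 4 below in BPA against control muscles and none was called. Their sums, mostly GPD1, were 11210 to 14110 in BPA muscles and 10620 to 14000 in control muscles. ADIPOQ had 144.6 to 1304 in BPA muscles and 426 to 781.7 in control muscles. The part of fat cell transcripts in the FASN values was not tested.

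MSMO1 was the 1 member with BPA below control in every muscle library, against 2.48% of all genes. It had 28.97, 38.37, 26.67 and 32.43 normalized reads in BPA muscles, against 43.83, 38.77, 44.59 and 55.6 in control muscles, and the highest BPA muscle lay just under the lowest control (log2 difference -0.52, SE 0.195, adjusted p = 0.522). SREBF1 stood at 1698, 2527, 2312 and 2233 in BPA muscles, against 2016, 1860, 1379 and 1531 in control muscles (log2 difference 0.37, SE 0.145, adjusted p = 0.547). Here 910 lay inside the control range and the other 3 BPA muscles above it. LPIN1 overlapped through BPA muscle 977 (log2 difference -0.24, SE 0.111, adjusted p = 0.652), SREBF2 through most libraries (log2 difference 0.16, SE 0.133, adjusted p = 0.806) and PMVK, with 75.77, 85.18, 53.34 and 68.1 in BPA muscles against 77.92, 86.8, 99.74 and 62.96 in control muscles, likewise (log2 difference -0.21, SE 0.189, adjusted p = 0.822). ELOVL6 had 60.17, 36.84, 28.07 and 38.1 in BPA muscles against 24.35, 27.81, 29.34 and 54.78 in control muscles and IDI1 170.5 to 200.7 in BPA muscles against 156.1 to 200.9 in control muscles, both with overlap. The estimates of the 14 hepatocyte markers were all below 0 for BPA against control in muscle, at -1.35 to -0.05 (log2), and 3 of these genes were called lower. The fibrinogen chains FGA, FGB and FGG had means of 713.5, 836.6 and 517.6 in BPA muscles against 1633, 2106 and 1277 in control muscles. RBP4 had means of 428.2 and 439.2. The sums of the 14 markers, which include the fibrinogen chains, were 6066 to 12080 in BPA muscles and 12250 to 17990 in control muscles. Single markers such as RBP4 overlapped between the groups. The part of hepatocyte transcripts in the muscle values of the members was not tested.

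Whether BPA and control differed more in one tissue than in the other was tested as an interaction. No member was called, nor any of the 13677 genes tested (0%), and unadjusted p lay under 0.05 for 6 of 40 members and 2661 of all genes. The 6 members were SCD (log2 difference -2.04, SE 0.615, adjusted p = 0.195), SREBF1 (log2 difference -0.96, SE 0.321, adjusted p = 0.202), FASN (log2 difference -1.16, SE 0.48, adjusted p = 0.231), PMVK (log2 difference 0.9, SE 0.354, adjusted p = 0.216), ELOVL6 (log2 difference -1.93, SE 0.852, adjusted p = 0.241) and IDI1 (log2 difference -0.87, SE 0.393, adjusted p = 0.244). Positive values mean a more positive BPA difference in liver than in muscle. The median over the fatty acid arm was -0.41, over the sterol arm -0.67 and over all genes tested -0.05. SREBF1 and FASN had estimates of opposite sign in the 2 tissues, at -0.58 and -0.81 in liver and 0.37 and 0.35 in muscle, and none of these 4 estimates was called. Without sheep 910, ACACA, SCD, SREBF1 and LPIN1 were called for the interaction, where 22.1% of all genes were.

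Within the fatty acid arm the paired enzymes gave further contrasts between liver groups. DGAT2 over DGAT1 was 1.65, 0.922, 0.33 and 0.213 in BPA livers, against 0.0838, 1.38, 2.18 and 2.09 in control livers. Sheep 902 had the lowest ratio of all 8 livers and 3 of the 4 BPA livers lay below the other 3 controls, so the groups overlapped. The ratio was 0.301 to 1.24 in BPA muscles and 0.357 to 0.665 in control muscles. ACACB over ACACA was 1.2, 1.14, 2.39 and 2.39 in BPA livers, against 1.42, 0.716, 1.58 and 0.917 in control livers. These ratios are descriptions and were not tested.

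Genes around the pathway were read from 3 further lists. Of 14 genes that process, hold or degrade SREBPs or act with them, 4 were higher and 6 lower in liver than in muscle. Over all genes tested 36.1% were higher and 35.3% lower. ERLIN1 and ERLIN2, membrane proteins that restrain SREBP processing, were higher (2.05 and 1.61, log2), as were MBTPS1, the first of the proteases, and NR1H3, a liver X receptor, whereas SCAP (log2 difference -0.1, SE 0.162, adjusted p = 0.602) was not called. None of the 14 was called for BPA in either tissue, with medians of -0.18 in liver and -0.06 in muscle. Among the smallest p in liver was that of MARCH6 (log2 difference -0.71, SE 0.403, adjusted p = 0.343), a ubiquitin ligase of the endoplasmic reticulum, and in muscle the smallest were those of FBXW7 (log2 difference -0.29, SE 0.0844, adjusted p = 0.334), a ligase subunit that marks nuclear SREBPs for destruction, and SCAP (log2 difference -0.14, SE 0.0804, adjusted p = 0.739).

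Of the 31 other genes of fatty acid and glyceride synthesis, 27 were tested between tissues and 11 were higher and 9 lower in liver, against 36.1% and 35.3% of all genes tested. MOGAT1, a monoacylglycerol acyltransferase, differed by 6.16 and ELOVL2, a further elongase of polyunsaturated fatty acids, by 5.58, while MID1IP1, a partner of acetyl-CoA carboxylase, differed by -4.04 (log2). AGPAT5 and FADS3 were also lower in liver, with means of 86.8 and 42.45 normalized reads in livers against 922.2 and 359.9 in muscles. Neither gene overlapped between the tissues. For BPA none was called, with a median of -0.71 over the 27 tested in liver and -0.01 over the 24 tested in muscle. MID1IP1 had 135.3, 45.8, 107.3 and 85.68 normalized reads in BPA livers, against 163.9, 193.4, 277.2 and 282.5 in control livers, with no overlap (log2 difference -1.35, SE 0.379, adjusted p = 0.256). GPAT3, a glycerol phosphate acyltransferase, had 58.85, 68.71, 94.81 and 61.32 in BPA livers, against 420.2, 205.7, 117.3 and 138.2 in control livers, also with no overlap (log2 difference -1.46, SE 0.415, adjusted p = 0.256). HSD17B12, a reductase of fatty acid elongation, had 93.6, 132, 84.22 and 89.18 in BPA muscles, against 174.1, 159.3, 190.1 and 161.1 in control muscles, again with no overlap (log2 difference -0.79, SE 0.152, adjusted p = 0.113), and TECR, the last enzyme of the elongation cycle, differed by -0.28 in muscle (adjusted p = 0.366).

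Of 15 other sterol and isoprenoid genes 14 were tested, of which 5 were higher and 5 lower in liver, against 36.1% and 35.3% of all genes tested. SOAT2, which esterifies cholesterol, differed by 7.97, while FNTA and FNTB, the subunits of protein farnesyltransferase, differed by -1.08 and -1.73 (log2). None was called for BPA, with medians of -0.2 in liver and -0.04 in muscle. In liver the smallest p were those of NUS1 (log2 difference -0.96, SE 0.366, adjusted p = 0.258), a subunit that makes dolichol, and COQ2 (log2 difference -0.97, SE 0.419, adjusted p = 0.271), an enzyme of coenzyme Q synthesis, and in muscle PDSS2, another enzyme of that path, had an adjusted p of 0.636.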

How the data were processed

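RNA was sequenced from 16 libraries of 8 sheep, made with a low-input kit from RNA depleted of its ribosomal part, per the labels' protocols. The tools named in the submitters' processing notes are FastQC, DESeq2 (version 1.24.0) and Trimmomatic. Which aligner, counter, annotation, strand setting and genome build they used is not stated there, so genes that overlap or have close copies are uncertain. The authors deposited a table of signal per gene, made by dividing the reads of each gene by a library's size factor, set across the tissues together. Dividing by the smallest value above 0 of a library gave whole reads, within 0.1, for 99.986 to 100% of values, 4391896 to 28540671 reads per library; counting error is therefore largest in the shallow livers. No separate extraction, date or lane is given in the labels.

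Groups came from the treatment and tissue labels. The main test, two-sided, was run in R 4.3.3 with limma 3.58.1 on log2(value + 1), kept genes averaging 10 or more, and used Benjamini-Hochberg adjustment over all of them with a threshold of 0.05: 8 libraries for BPA against control in each tissue, and a fit of 4 groups over 16 libraries for liver against muscle and for the difference between BPA effects. The replicates are separate sheep. edgeR 4.0.16 and DESeq2 1.42.0 were run on the recovered reads as alternatives, and the scripts were tested on simulated data. Both tissues of a sheep share its number, so the tissues are paired by animal; the correlations of the deviations of a sheep's liver and muscle were -0.1 to 0.12, and fits with sheep as a block are given beside the results they change. Folds are on the log2(value + 1) scale and understate low genes. Gene names were taken from the table's symbols, and all 42 were found among RefSeq names.

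The members, the lists and the alternatives were chosen with earlier results of these data known. Genes named by value were those called for BPA or with groups that did not overlap, the 3 with the smallest p per arm and tissue, the 5 per arm with the largest tissue difference, 11 fixed genes of both arms, and the 2 with the smallest p of each other pathway list per tissue, some of which are not reported here; other pathway genes, EBP, FADS2 and the others named with a tissue difference only were picked as examples after their values were seen.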

Additional observations from a re-analysis of the deposited data

Results flagged for a closer look

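Of the 60 groups of 4 libraries examined for a library far from the other 3, 6 were flagged, and chance alone flags about 1 in 20 groups. The 60 groups did not span all 42 members. Those left out included ACAT2, with 5610 in BPA liver 910 against 561.1 to 841.1 in the other BPA livers. They also included ME1, with 94.22 in control liver 902 against 17.89 to 19.46 in the other controls. Control liver 902 accounted for 5 of the 6 flagged groups. SCD had 1707 normalized reads in this liver against 325.5 to 387.2 in the other control livers. ELOVL6 had 1760 against 147.9 to 261.7, FASN 1289 against 427.3 to 562.4 and ACACA 1108 against 678.4 to 726.8. HMGCS1 was low, with 572.8 against 1620 to 1784. This library had 4391896 reads, hepatocyte markers at a median of -2.94 and fibroblast markers at 4.6 (log2 from the liver mean), and their part in these values was not tested. In muscle, ELOVL6 had 54.78 in control sheep 928 against 24.35 to 29.34 in the other control muscles.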

How the results depend on the processing

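For BPA against control in liver, where 0 members were called, a fit of all 16 libraries called 1 (SCD). That fit shares its estimate of spread between the tissues, although the members varied more in liver than in muscle. Its share of all genes called is not reported here, so the call does not set SCD apart from other genes. Sample quality weights called 28 (61.1% of all genes tested) and leaving out sheep 902 and 910 called 22 (43.1%). With the weights the liver medians were -0.63 for the fatty acid arm and -1.28 for the sterol arm. Without BPA liver 910 alone, 16.5% of all genes tested were called and 0 of the 40 members. Leaving out 1 library at a time called 0 members, with liver medians of -0.44 to -0.02 for the fatty acid arm and -1.08 to -0.45 for the sterol arm; the first was -0.44 without 902, -0.43 without 910, -0.16 without 908, -0.02 without 924 and -0.03 without 928, and the second was -1.08 without 902. In muscle DESeq2 called 1 member (FASN; 0.891% of all genes tested) and the weights 2 (FASN and SREBF1; 2.56%), and leaving out 1 library gave 0 and medians of 0.09 to 0.19 and of 0 to 0.05. For the difference between BPA effects DESeq2 called 1 (SCD; 1.08% of all genes tested), the weights 35 (60.3%), the fit without 902 and 910 called 22 (42.7%), and leaving out 1 sheep gave 0 to 4. For liver against muscle 34 to 37 members were called when 1 sheep was left out, and with sheep as a replicate block the paired fit called 36, with DGAT2 lost and SCD gained, and 0 for the difference between BPA effects. MVD, not called between tissues, changed sign to 0.08 (edgeR), 0.03 (DESeq2), 0.13 (weights), 0.16 without 902, 0.08 without 918 and 0.04 without both 902 and 910. The cause of these changes was not tested. No other of the 40 tissue differences, and none of the 6 BPA differences named by smallest p in each tissue, changed direction under the alternatives run, among them other pseudocounts, filters and scalings. Scaling moved the median of all genes most for the difference between BPA effects, to 0.05 against -0.05. Promoter motifs were not searched, and that alternative was not run. Depth limits the livers at 4391896 to 7269007 reads most.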
